A study of Gallus gallus and Dromaius novaehollandiae with 40 samples.

Results

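The genes described here are 68 transcription factor genes, nearly all of the homeobox class, measured in early embryos of the chick (Gallus gallus) and of the emu (Dromaius novaehollandiae). They were taken from the 12338 gene symbols of the early count tables by a rule on names: symbols that begin with HOX, DLX, LHX, MEIS, PBX, NKX, PAX, POU, IRX, ZFHX, SATB, TSHZ, CUX, BARX, EMX, GBX, OTX, PITX, TLX, HMX or TGIF, together with SIX4, SIX6, ZEB1, ZEB2 and MKX, and with PAX3 left out. The name rule uses no measured value, but it was set with earlier results of these data known. By family they are 10 HOX genes, 17 other genes of the ANTP class (DLX, EMX, GBX, BARX, NKX, HMX and TLX), 6 genes of the paired and PITX/OTX group, 7 zinc finger homeobox genes, 8 TALE genes, 8 POU genes, 6 LIM genes, 4 CUT genes and, of the sine oculis family, SIX4 and SIX6. The name rule also takes in POU2AF1, a coactivator of POU proteins that has no homeobox, and PAX9, a paired box factor without a homeodomain.

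A homeobox encodes the homeodomain, a DNA-binding fold that turns a protein into a regulator of other genes. HOX genes lie in clusters and are switched on in sequence along the body axis, and TALE proteins such as PBX bind DNA together with them. Other families mark tissue layers: in vertebrate embryos PITX1 is known as a factor of the hindlimb field and DLX5 as a factor of the ectoderm and the limb bud.

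The series asks how gene expression in limb-forming tissue differs between the chick and the emu, whose wing starts to grow late. Forelimb-level tissue was taken before and after the lateral plate mesoderm splits into the somatopleure, an outer layer that gives rise to the limb bud, and the splanchnopleure, an inner layer that faces the gut. The chick groups hold 3 libraries each, of lateral plate at Hamburger and Hamilton stage HH10 (numbers 30, 31 and 32), somatopleure at HH13 (15, 60 and 63) and splanchnopleure at HH13 (50, 61 and 64). The emu groups hold 3 libraries of lateral plate (1, 8 and 23), 3 of somatopleure (5, 13 and 53) and 2 of splanchnopleure (6 and one labelled pool). The emu lateral plate and somatopleure are labelled HH10 and HH13 likewise, except that lateral plate 1 is labelled HH13 and somatopleure 13 is labelled HH10. Both emu splanchnopleure libraries are labelled HH13. No strain, genotype or treatment separates these groups. Otherwise each tissue has 1 stage, so tissue and stage cannot be told apart in a comparison with the lateral plate. The labels do not say whether the libraries of a tissue came from separate embryos, so the p-values measure the spread between these libraries, which may be technical. Forelimb, hindlimb and flank at HH18 were also sequenced, but those tables name genes by numbered identifiers that could not be paired with these symbols, and they are not used here.

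Total counts ran from 5061393 to 8348865 per chick library and from 7350786 to 8601471 per emu library. PRRX1, a marker of the somatopleure, was highest in the somatopleure in both species, at 687 ± 175 CPM (counts relative to the scaled library size, mean ± SD, n = 3) in the chick and 143 ± 50.3 (n = 3) in the emu. Levels in the splanchnopleure were 65.3 ± 42.5 (n = 3) and 27.4 ± 29.9 (n = 2). The summed level of 6 listed somatopleure markers, PRRX1 among them, was 783 to 1087 CPM in chick somatopleure and 162 to 287 in chick lateral plate. In the emu the layers were closer, at 130 to 296 in somatopleure and 92.5 to 124 in lateral plate. Chick splanchnopleure 61 stood apart from its group: its surface ectoderm markers TP63 and WNT6 were at 20.8 and 35.1 CPM, against 1.65 and 0.751 in splanchnopleure 50 and 3.19 and 1.42 in splanchnopleure 64. The summed level of the 5 listed surface ectoderm markers was 354 CPM there, against 158 and 183. Emu somatopleure 5 also stood apart, with TBX5, a marker of the forelimb field, at 76.9 CPM against 10.8 and 6.96 in the other emu somatopleure libraries. These are bulk libraries, in which fewer cells of a type and less RNA per cell cannot be told apart.

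Of the 68 genes, 37 passed the filter on low counts in the chick and 41 in the emu, 35 of them in both species. A gene was called when its adjusted p was under 0.05 (edgeR quasi-likelihood test, Benjamini-Hochberg over all genes tested). In the chick, 9 of the 37 tested genes were called in somatopleure against lateral plate (7 higher and 2 lower), where 9.8% of all tested genes were called, 3.52% as higher and 6.28% as lower. In splanchnopleure against lateral plate it was again 9 (7 higher, 2 lower) beside 16.9% of all genes (9.07% higher, 7.78% lower). In somatopleure against splanchnopleure it was 9 (4 higher, 5 lower) beside 19.1% (7.34% higher, 11.8% lower). The zinc finger homeobox genes held 7 of the 9 calls in the first comparison, 4 in the second and 2 in the third.

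In the emu, none of the 41 tested genes was called in somatopleure against lateral plate, where the share of all genes called was 0%. At an unadjusted p under 0.05, 11 of the 41 and 1107 of all genes passed in that comparison, and DESeq2 called 2 of them, ZFHX4 as higher and PITX1 as lower, among 140 genes in all. In splanchnopleure against lateral plate 15 were called (7 higher, 8 lower) beside 20.6% of all genes (11.4% higher, 9.21% lower). In somatopleure against splanchnopleure 9 were called (5 higher, 4 lower) beside 13.4% (5.05% higher, 8.34% lower). These emu counts rest mostly on splanchnopleure 6: without it most of these calls were lost, with the lone library left assumed to vary like the other groups. The share of all genes called fell in the same refit, so the loss is not particular to the homeobox genes. Most emu calls that follow therefore stand only with splanchnopleure 6 in the fit, and fewer of them also need the pool. Each such loss is given beside its gene.

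Calls are described below by family, since many genes were called in more than one comparison. The median log2 fold change of the tested homeobox genes was 0.33 in chick somatopleure against lateral plate, 0.12 in chick splanchnopleure against lateral plate and 0.31 in chick somatopleure against splanchnopleure, where the medians of all tested genes were 0.00, 0.01 and 0.00. In the emu the same medians were 0.08, -0.41 and 0.35, against 0.01, 0.00 and 0.04 for all genes. The plot of tested genes by library shows tissues apart mainly in the PITX, zinc finger, DLX and EMX rows. In the chick, TSHZ2, TSHZ3, ZFHX3 and ZFHX4 were called between the lateral plate and each split layer. Of the zinc finger genes only TSHZ1 and ZEB2 were called there between the layers.

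**Figure D1:**
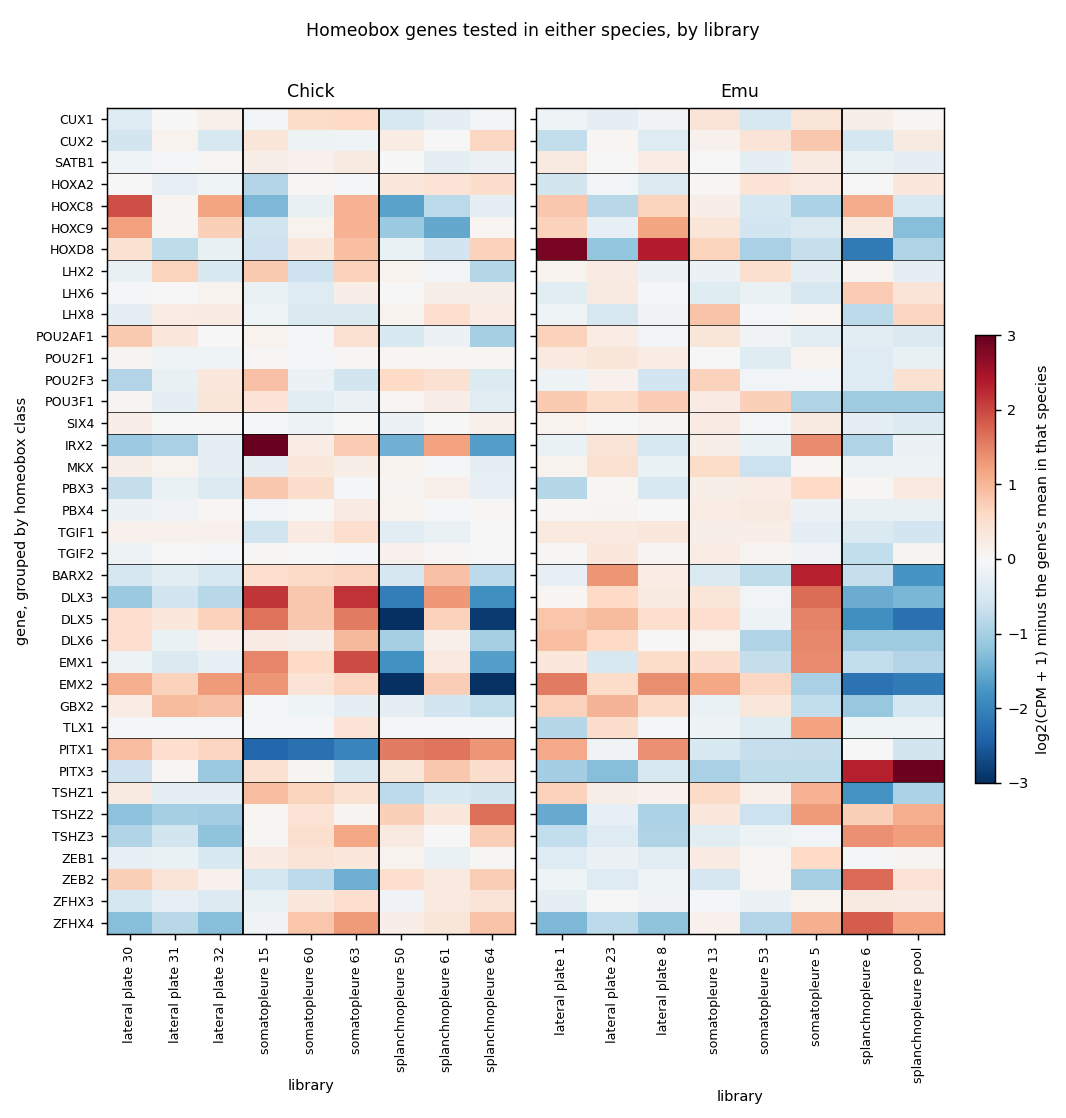
Levels of homeobox genes tested in either species, 1 column per library and 1 row per gene, as log2(CPM + 1) minus the gene's mean over the libraries of that species (colour). PITX1 is low in the 3 chick somatopleure libraries, PITX3 is high in both emu splanchnopleure libraries, and chick splanchnopleure 61 departs from the other 2 splanchnopleure libraries in the DLX and EMX rows.

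Among the PITX genes, bicoid-related factors, PITX1 was lowest in the chick somatopleure and PITX3 was highest in the emu splanchnopleure. PITX1 stood at 14.6, 10.8 and 12 CPM in chick lateral plate 30, 31 and 32, at 0.624, 0.764 and 1.11 in somatopleure 15, 60 and 63, and at 23, 24.2 and 19.8 in splanchnopleure 50, 61 and 64. The 3 tissues did not overlap, and the somatopleure was by far the lowest. PITX1 fell by 3.88 on the log2 scale in chick somatopleure against lateral plate (SE 0.28, adjusted p = 2.2e-05) and by 4.71 against splanchnopleure (SE 0.28, adjusted p = 3.47e-06), and both calls held with each library left out. It rose by 0.83 in splanchnopleure against lateral plate (adjusted p = 0.0228). That smaller call was lost without lateral plate 31 (adjusted p = 0.0833), lateral plate 32 (0.0828), splanchnopleure 50 (0.0647) or splanchnopleure 61 (0.0691).

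In the emu, PITX1 was at 42.3, 49.6 and 17.2 CPM in lateral plate 1, 8 and 23, at 10.9, 13.3 and 11.2 in somatopleure 5, 13 and 53, and at 18.3 and 12.3 in splanchnopleure 6 and the pool. The somatopleure lay below the lateral plate without overlap, while somatopleure and splanchnopleure overlapped. The log2 fold change was -1.62 (SE 0.36) in emu somatopleure against lateral plate, with an adjusted p of 0.282 that missed the threshold, and -0.37 (SE 0.41, adjusted p = 0.576) against splanchnopleure. In emu splanchnopleure against lateral plate PITX1 missed the threshold as well (adjusted p = 0.061). Without lateral plate 23 it was called as lower there, at -1.59 (adjusted p = 0.0156). That refit leaves out the lateral plate library that is lowest in PITX1, so the call is not separate support.

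The change of PITX1 differed between the species in each of the 3 tissue comparisons. Here the emu log2 fold change was subtracted from that of the chick, in the interaction term of a joint fit that held 11063 genes, 46 of them of the 68. In somatopleure against splanchnopleure, 3 of the 46 were called (4.5% of all genes), and PITX1 had the largest called difference at -4.29 (SE 0.55, adjusted p = 0.000559), which held with each library left out. In splanchnopleure against lateral plate, 3 of the 46 were called (8.24% of all genes), with PITX1 at 2.06 (SE 0.47, adjusted p = 0.0154). This call was lost without the emu splanchnopleure pool (adjusted p = 0.054). In somatopleure against lateral plate, PITX1 was the 1 called (2.36% of all genes), at -2.23 (SE 0.51, adjusted p = 0.0331). Leaving out lateral plate 30 (adjusted p = 0.0826), 31 (0.0501) or 32 (0.0551), somatopleure 15 (0.0708), 60 (0.0868) or 63 (0.0563) of the chick, or emu lateral plate 1 (0.0526) or somatopleure 13 (0.0628), ended that call. It was also lost when both emu libraries with a deviating stage label were left out together.

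PITX3, known as a factor of lens and midbrain neurons, was at 39.8 and 61.5 CPM in emu splanchnopleure 6 and the pool. It stood at 2.97, 4.78 and 2.34 in emu lateral plate 1, 8 and 23 and at 3.81, 3.14 and 3.82 in somatopleure 5, 13 and 53. Both splanchnopleure libraries were thus far above the other 6, which lay close together. PITX3 rose by 3.91 (SE 0.33, adjusted p = 0.00167) in emu splanchnopleure against lateral plate and fell by 3.81 (SE 0.33, adjusted p = 0.00229) in somatopleure against splanchnopleure, and both calls held with each library left out.

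In the chick, PITX3 ranged only from 5.01 to 21.7 CPM, at 15.9, 21.7 and 17.9 in splanchnopleure 50, 61 and 64, 7.50, 12.5 and 5.01 in lateral plate 30, 31 and 32, and 16.9, 12.7 and 8.0 in somatopleure 15, 60 and 63. Somatopleure and splanchnopleure overlapped. PITX3 rose by 1.14 (SE 0.34, adjusted p = 0.0431) in chick splanchnopleure against lateral plate. That call was lost without lateral plate 30 (adjusted p = 0.139) or 32 (0.142), somatopleure 60 (0.0567), or splanchnopleure 50 (0.0645), 61 (0.105) or 64 (0.099). The species difference of PITX3 was -2.78 (SE 0.51, adjusted p = 0.00533) in splanchnopleure against lateral plate and 3.30 (SE 0.51, adjusted p = 0.00167) in somatopleure against splanchnopleure, and both held with each library left out.

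**Figure D2:**
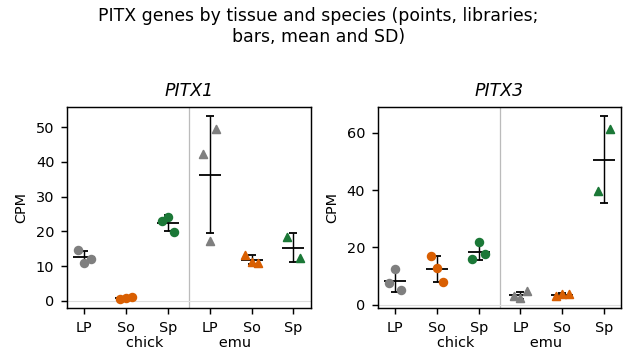
PITX1 and PITX3 in CPM (vertical axes, linear) in lateral plate (LP), somatopleure (So) and splanchnopleure (Sp) of the chick and the emu; points are libraries and bars are mean ± SD. Chick somatopleure is lowest for PITX1, at 0.624 to 1.11 CPM, and only the 2 emu splanchnopleure libraries reach 39.8 CPM or more for PITX3.

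The zinc finger homeobox genes, large proteins that carry both zinc fingers and homeodomains or related domains, were tested in full: all 7 passed the filter in both species. In chick somatopleure against lateral plate 6 of the 7 rose and 1, ZEB2, fell. ZFHX4 was at 21.1, 28.8 and 20.8 CPM in lateral plate 30, 31 and 32, at 48.2, 94.2 and 128 in somatopleure 15, 60 and 63, and at 59.8, 67.4 and 94.6 in splanchnopleure 50, 61 and 64. Both split layers lay above the lateral plate and overlapped each other. ZFHX4 rose by 1.93 (SE 0.32, adjusted p = 0.00305) in the somatopleure and by 1.65 (SE 0.32, adjusted p = 0.00676) in the splanchnopleure, and both calls held with each library left out.

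ZFHX4 in the emu was at 10.6, 11.8 and 16.0 CPM in lateral plate 1, 8 and 23, at 61, 31.3 and 14.9 in somatopleure 5, 13 and 53, and at 102 and 67.3 in splanchnopleure 6 and the pool. The splanchnopleure was highest, and the somatopleure overlapped the lateral plate. It rose by 2.73 (SE 0.48, adjusted p = 0.00777) in emu splanchnopleure against lateral plate, a call lost without splanchnopleure 6 (adjusted p = 0.0633). ZFHX3, its close relative, rose in chick somatopleure (0.63, adjusted p = 0.0412) and splanchnopleure (0.60, adjusted p = 0.0355) against lateral plate. The first of these calls was lost without lateral plate 30 (adjusted p = 0.139), 31 (0.0625) or 32 (0.124) or somatopleure 60 (0.109) or 63 (0.127). The second was lost without splanchnopleure 61 (0.0785) or 64 (0.126), and without lateral plate 30 (0.126), 31 (0.0531) or 32 (0.109).

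TSHZ1, TSHZ2 and TSHZ3 are teashirt factors, named after a trunk patterning gene of Drosophila. TSHZ3 was at 16.8, 21.8 and 13.4 CPM in chick lateral plate 30, 31 and 32, at 33.3, 46.0 and 73.2 in somatopleure 15, 60 and 63, and at 39.5, 32 and 54.9 in splanchnopleure 50, 61 and 64. Here too the split layers overlapped each other and lay above the lateral plate. TSHZ3 rose by 1.54 (SE 0.30, adjusted p = 0.00813) in the chick somatopleure, with each library left out as well. Its rise of 1.28 in the splanchnopleure (adjusted p = 0.017) was lost without lateral plate 30 (adjusted p = 0.0662) or 32 (0.0743) or splanchnopleure 64 (0.0709).

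Emu TSHZ3 was at 69.1 and 63.7 CPM in splanchnopleure 6 and the pool, at 24.3, 20.3 and 23.2 in somatopleure 5, 13 and 53, and at 15.2, 13.3 and 19.6 in lateral plate 1, 8 and 23. The 3 emu tissues did not overlap, and unlike in the chick the layers were apart. It rose by 2.05 (SE 0.19, adjusted p = 0.00167) in splanchnopleure against lateral plate and fell by 1.55 (SE 0.19, adjusted p = 0.00301) in somatopleure against splanchnopleure, both with each library left out as well. The species difference in somatopleure against splanchnopleure was 1.87 (SE 0.39, adjusted p = 0.0122) and was lost without emu splanchnopleure 6 (adjusted p = 0.0568).

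TSHZ1 moved the other way between the layers. It was at 102, 85.6 and 73.0 CPM in chick somatopleure 15, 60 and 63, at 64.8, 44.2 and 43.7 in lateral plate 30, 31 and 32, and at 30.5, 38.6 and 35.7 in splanchnopleure 50, 61 and 64. The 3 tissues did not overlap. TSHZ1 rose by 1.31 (SE 0.18, adjusted p = 0.000623) in chick somatopleure against splanchnopleure, with each library left out as well. Its rise of 0.77 against lateral plate (adjusted p = 0.0198) was lost without lateral plate 31 (adjusted p = 0.0778) or 32 (0.0888) or somatopleure 15 (0.0542) or 60 (0.0544).

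In the emu TSHZ1 was at 13.4 and 24.7 CPM in splanchnopleure 6 and the pool and between 53.9 and 101 in the other 6 libraries, without overlap. It rose by 2.0 (SE 0.35, adjusted p = 0.0099) in somatopleure against splanchnopleure and fell by 1.73 (SE 0.35, adjusted p = 0.0117) in splanchnopleure against lateral plate. Both calls were lost without splanchnopleure 6, at adjusted p = 0.0844 and 0.0957. TSHZ1 was 1 of 2 genes called in the same direction in both species in somatopleure against splanchnopleure.

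TSHZ2 was at 25.5, 30.4 and 29.0 CPM in chick lateral plate 30, 31 and 32, at 63.7, 81.8 and 65.0 in somatopleure 15, 60 and 63, and at 100.4, 77.8 and 195 in splanchnopleure 50, 61 and 64. The lateral plate was lowest, and the layers overlapped. It rose by 2.14 (SE 0.29, adjusted p = 0.00135) in chick splanchnopleure against lateral plate, with each library left out as well. The rise of 1.31 in the somatopleure (adjusted p = 0.0148) was lost without lateral plate 30 (adjusted p = 0.0699) or 32 (0.058) or somatopleure 60 (0.0552). In the emu it rose by 1.82 in splanchnopleure against lateral plate (adjusted p = 0.0432), lost without lateral plate 1 (adjusted p = 0.132) or 8 (0.115), somatopleure 13 (0.0595), or splanchnopleure 6 (0.131) or the pool (0.142).

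ZEB1 and ZEB2 are repressors known from epithelial to mesenchymal transition. ZEB1 was at 48.7, 50.4 and 41.5 CPM in chick lateral plate 30, 31 and 32 and at 68.7, 75.8 and 72.3 in somatopleure 15, 60 and 63, without overlap. It rose by 0.62 (SE 0.12, adjusted p = 0.00752), with each library left out as well. In the emu the ZEB1 value for the same comparison was 0.62 (SE 0.16), with an adjusted p of 0.322 that missed the threshold.

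ZEB2 was at 29.96, 24.8 and 15.0 CPM in chick somatopleure 15, 60 and 63, at 71.4, 56.8 and 47.7 in lateral plate 30, 31 and 32, and at 61.5, 53.1 and 73.4 in splanchnopleure 50, 61 and 64. The somatopleure lay below both other tissues, which overlapped. ZEB2 fell by 1.34 (SE 0.24, adjusted p = 0.00483) against lateral plate and by 1.43 (SE 0.24, adjusted p = 0.00195) against splanchnopleure, with each library left out as well. The summed level of 14 endothelial markers was also lowest there, at 269.6 to 434 CPM in chick somatopleure, 970 to 1226 in lateral plate and 1085 to 1583 in splanchnopleure. No marker of that list was at 0 in any of the 3 tissues, and its part in the ZEB2 result was not tested.

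Emu ZEB2 was at 351 and 144 CPM in splanchnopleure 6 and the pool and between 54.0 and 111 in the other 6 libraries. The endothelial sum was 2244 in splanchnopleure 6 and 1129.5 in the pool, against 281 to 666 in the other emu libraries, and its part in the result was not tested. ZEB2 rose by 1.41 (SE 0.37, adjusted p = 0.0277) in emu splanchnopleure against lateral plate, lost without lateral plate 1 (adjusted p = 0.0816), 8 (0.0688) or 23 (0.0806) or splanchnopleure 6 (0.297). It fell by 1.62 (SE 0.37, adjusted p = 0.0239) in somatopleure against splanchnopleure, lost without somatopleure 13 (adjusted p = 0.0719) or splanchnopleure 6 (0.232).

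The DLX genes, distal-less factors, and the EMX genes, empty spiracles factors, were low in the emu splanchnopleure, and so were TP63 and WNT6 of the 5 listed surface ectoderm markers. DLX5 was at 2.71 and 1.81 CPM in emu splanchnopleure 6 and the pool, against 22.5, 17.8 and 24.5 in lateral plate 1, 8 and 23 and 36.3, 17.8 and 10.9 in somatopleure 5, 13 and 53. EMX2 was at 0.645 and 0.776 in the same splanchnopleure libraries, 21.4, 18.9 and 10.1 in the lateral plate and 2.89, 15.9 and 10.8 in the somatopleure. Neither gene's splanchnopleure libraries overlapped those of another tissue. TP63 was at 2.19 and 1.81 CPM in the emu splanchnopleure pair and at 7.51 to 39.9 in the other 6 emu libraries, and WNT6 at 1.68 and 0.906 against 6.96 to 20.6. The summed level of all 5 listed markers was closer, at 287 and 294 CPM in the pair and 312 to 533 in the other 6. Of the 5, 2 were called as lower and 0 as higher in emu splanchnopleure against lateral plate. The part of ectoderm in these values was not tested.

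In emu splanchnopleure against lateral plate DLX5 fell by 3.25 (SE 0.54, adjusted p = 0.0062), EMX2 by 4.53 (SE 0.80, adjusted p = 0.00771) and DLX3 by 2.86 (SE 0.74, adjusted p = 0.0277). Without splanchnopleure 6 these were no longer called, at adjusted p = 0.0514, 0.0744 and 0.17. DLX3 was also lost without lateral plate 1 (adjusted p = 0.0592), 8 (0.0605) or 23 (0.0651) or the pool (0.0938). In emu somatopleure against splanchnopleure the same genes rose, DLX5 by 3.25 (adjusted p = 0.00784), EMX2 by 3.77 (adjusted p = 0.0193) and DLX3 by 3.50 (adjusted p = 0.0199). Those calls were lost without splanchnopleure 6, at adjusted p = 0.059, 0.153 and 0.155, and without the pool for EMX2 (0.0707) and DLX3 (0.0691).

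DLX6, the neighbour of DLX5 in the RefSeq gene order, had no count in either emu splanchnopleure library. Its mean was 2.10 CPM in emu lateral plate, at least 5.41-fold higher than a floor of 3 counts per splanchnopleure library, and 2.04 CPM in the somatopleure, at least 5.27-fold higher. Its adjusted p missed the threshold in both comparisons, at 0.0559 and 0.0735. EMX1 had 3 counts over both emu splanchnopleure libraries, and the lateral plate level was 7.22 times as high (exact 95% interval 2.27 to 36.7, counting error only).

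In the chick, the same genes turned on splanchnopleure 61. DLX5 was at 0.751 and 1.42 CPM in splanchnopleure 50 and 64 but at 27.4 in splanchnopleure 61, against 24.0, 20.9 and 27.2 in lateral plate 30, 31 and 32 and 53.4, 30.1 and 51.3 in somatopleure 15, 60 and 63. EMX2 was likewise at 0.601 and 0.946 in the other 2 and 24.2 in splanchnopleure 61, and DLX3 at 0.451 and 0.710 against 13.9. Splanchnopleure 61 thus lay within or near the range of the lateral plate or somatopleure for these genes, and it is the library whose TP63 and WNT6 levels stood apart. Its summed level of 6 somatopleure markers was the lowest of its group, at 27.3 CPM against 130 and 96.7 in splanchnopleure 50 and 64. Its summed endoderm marker level was the highest, at 298 against 196 and 221. The endoderm and surface ectoderm lists share CDH1 and EPCAM, so their sums are not separate readings. The part of other cells in these values was not tested.

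With all 9 chick libraries neither DLX5 (2.22, SE 0.83, adjusted p = 0.0894), EMX2 (1.64, SE 0.87, adjusted p = 0.219) nor DLX3 (2.07, SE 0.87, adjusted p = 0.127) was called in somatopleure against splanchnopleure. Without splanchnopleure 61 the values were 5.33 (SE 0.39, adjusted p = 2.03e-05), 5.04 (SE 0.45, adjusted p = 6.37e-05) and 5.10 (SE 0.60, adjusted p = 0.000306). That refit leaves out the splanchnopleure library that is highest in these same genes, so its small adjusted p-values are not separate support. The number of homeobox genes called then rose from 9 to 15 of 39 fitted in that comparison (10 higher, 5 lower), beside 16.7% of all genes in the same refit, with BARX2, DLX3, DLX5, DLX6, EMX2, IRX2, IRX4 and TSHZ2 added and CUX1 and HOXA2 lost. In somatopleure against lateral plate it rose from 9 to 15 (13 higher), beside 9.58% of all genes, with BARX2, DLX3, DLX5, EMX1, IRX2 and IRX4 added. IRX4 did not pass the filter with all 9 chick libraries, so the full fit did not test it. Splanchnopleure 61 is in neither group of somatopleure against lateral plate, but the filter and the estimate of the spread take in all tissues. Calls added by that refit are thus not separate support in this comparison either. DLX3 was at 3.09 here without splanchnopleure 50, 61 or 64 alike, and was called each time (adjusted p = 0.0427, 0.00115 and 0.0404). In splanchnopleure against lateral plate the refit without splanchnopleure 61 called 10 (4 higher, 6 lower), beside 14.5% of all genes. There DLX5 fell by 4.41 (adjusted p = 0.000226) and EMX2 by 5.23 (adjusted p = 0.000207).

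EMX1 was the 1 gene of the DLX and EMX families called in the chick with every library in the fit. It was at 8.74, 4.33 and 12.8 CPM in somatopleure 15, 60 and 63 and at 0, 3.37 and 0.118 in splanchnopleure 50, 61 and 64, without overlap. It rose by 2.94 (adjusted p = 0.0399) in somatopleure against splanchnopleure. The call was lost without lateral plate 30 (adjusted p = 0.0549), 31 (0.0564) or 32 (0.064), somatopleure 15 (0.0553) or 63 (0.111), or splanchnopleure 50 (0.0825) or 64 (0.121), and without splanchnopleure 61 the value was 6.72 (adjusted p = 0.000474).

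**Figure D3:**
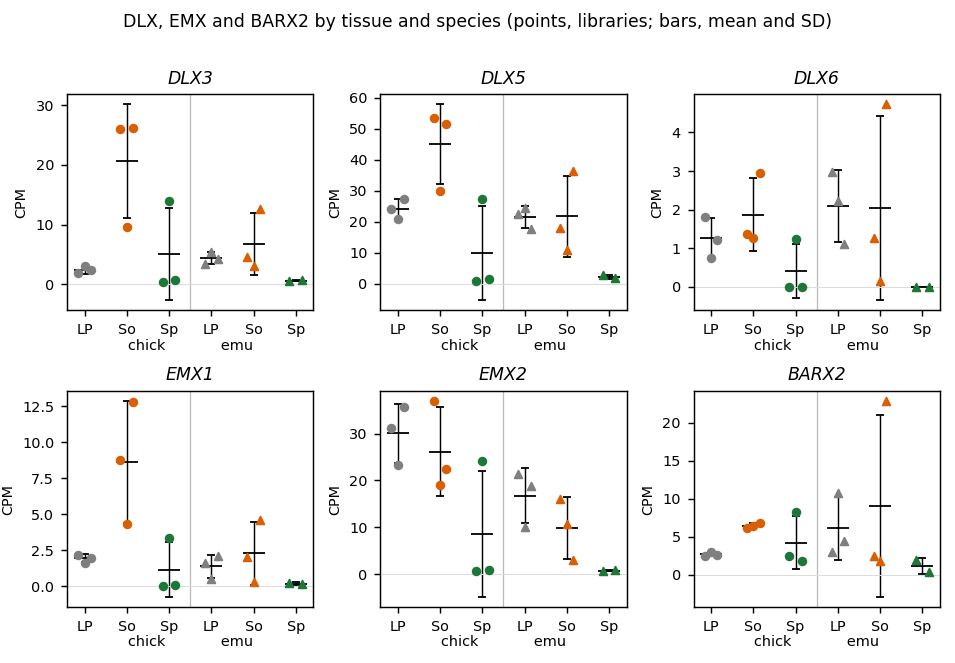
DLX3, DLX5, DLX6, EMX1, EMX2 and BARX2 in CPM (vertical axes, linear) in lateral plate (LP), somatopleure (So) and splanchnopleure (Sp) of the chick and the emu; points are libraries and bars are mean ± SD, which can reach below 0. For DLX3, DLX5 and EMX2, 2 chick splanchnopleure libraries lie near 0 and splanchnopleure 61 does not, while both emu splanchnopleure libraries are low.

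Of the remaining ANTP class genes outside the HOX clusters, GBX2, a gastrulation brain homeobox gene, was called in both species. It was at 4.24, 7.56 and 7.21 CPM in chick lateral plate 30, 31 and 32 and at 2.70, 1.99 and 1.66 in splanchnopleure 50, 61 and 64. In the emu it was at 3.43, 3.06 and 4.56 in lateral plate 1, 8 and 23 and at 0.258 and 0.906 in splanchnopleure 6 and the pool. The lateral plate was above the splanchnopleure without overlap in both. GBX2 fell by 1.57 in the chick (adjusted p = 0.0131), lost without lateral plate 32 (adjusted p = 0.0524) or splanchnopleure 64 (0.0594). It fell by 2.63 in the emu (adjusted p = 0.0335), lost without lateral plate 1 (adjusted p = 0.0806), 8 (0.065) or 23 (0.08) or splanchnopleure 6 (0.209).

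BARX2, a BarH-like factor, and IRX2, an Iroquois gene of the TALE class, were uneven within groups. IRX2 was at 29.2, 2.67 and 4.31 CPM in chick somatopleure 15, 60 and 63 and at 6.28 in splanchnopleure 61, with 0.150 and 0 in splanchnopleure 50 and 64. Its value in somatopleure against lateral plate, 3.84 (SE 1.35, adjusted p = 0.105), missed the threshold. BARX2 was at 22.9 CPM in emu somatopleure 5 and at 2.51 and 1.78 in somatopleure 13 and 53, and was not called in any comparison with all libraries in the fit.

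Of the HOX genes, HOXA2, HOXC8, HOXC9 and HOXD8 passed the filter in both species. HOXB13, HOXC12, HOXD11, HOXD12 and HOXD13, of the paralog groups that are switched on last and farthest to the tail, did not pass. The highest value of any of these 5 in a library was 0.601 CPM in the chick, for HOXB13, and 0.251 in the emu, also for HOXB13. HOXD12 had no count in either species.

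HOXA2, known for patterning the hindbrain, was at 90.9, 76.7 and 83.3 CPM in chick lateral plate 30, 31 and 32, at 48.8, 93.0 and 87.9 in somatopleure 15, 60 and 63 and at 113, 121 and 131 in splanchnopleure 50, 61 and 64. It fell by 0.67 in somatopleure against splanchnopleure (adjusted p = 0.0361), lost without lateral plate 30 (adjusted p = 0.0544) or 32 (0.0575) or splanchnopleure 50 (0.057), 61 (0.0681) or 64 (0.117). Somatopleure 15 was the lowest library, and somatopleure and splanchnopleure did not overlap. In the emu HOXA2 ranged from 28.2 to 55.4 CPM and was not called.

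HOXC8, HOXC9 and HOXD8, which belong to the trunk part of the clusters, spread widely within tissues. HOXC8 was at 15.9, 3.71 and 9.01 CPM in chick lateral plate 30, 31 and 32, at 0.749, 2.80 and 8.12 in somatopleure 15, 60 and 63 and at 0.451, 1.53 and 2.60 in splanchnopleure 50, 61 and 64. Lateral plate 30, its highest library, also had the highest summed level of 8 posterior growth zone markers, at 579 CPM against 119.6 and 196 in lateral plate 31 and 32. The part of those cells was not tested. The value of HOXC8 in splanchnopleure against lateral plate was -2.60 (SE 0.81, adjusted p = 0.0507), and it was called without lateral plate 31 (adjusted p = 0.0393), somatopleure 15 (0.0219) or somatopleure 63 (0.0277). Lateral plate 31 is the lowest lateral plate library for HOXC8, and calls gained by leaving out a library are not separate support.

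HOXC9, its neighbour, was highest in the same library, at 7.87 CPM in chick lateral plate 30, and lowest in splanchnopleure 61, at 0.306. Its value in splanchnopleure against lateral plate was -1.93 (SE 0.73, adjusted p = 0.0953), and it was called without splanchnopleure 64 (adjusted p = 0.0378), which is not separate support either. In the emu HOXC8 ran from 27.5 to 117 CPM and HOXC9 from 4.14 to 27.2, with splanchnopleure 6 and the pool at 117 and 38.4 for HOXC8 and 13.9 and 4.14 for HOXC9.

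HOXD8 was at 74.9, 53.1 and 3.69 CPM in emu lateral plate 1, 8 and 23, at 5.52, 15.7 and 4.37 in somatopleure 5, 13 and 53, and at 1.42 and 4.66 in splanchnopleure 6 and the pool. Lateral plate 23 thus lay with the split layers and the other 2 lateral plate libraries far above them. The value in emu splanchnopleure against lateral plate was -3.85 (SE 1.19, adjusted p = 0.0502), and without lateral plate 23 it was called (adjusted p = 0.0156). That refit leaves out the lateral plate library that is lowest in HOXD8, so the call is not separate support. In the chick HOXD8 ran from 20.2 to 66.6 CPM and was called in no comparison. None of these 4 HOX genes was called in a species difference with all libraries in the fit, and the HOXD8 value closest to the threshold was 3.99 (SE 1.23, adjusted p = 0.0562) in splanchnopleure against lateral plate.

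**Figure D4:**
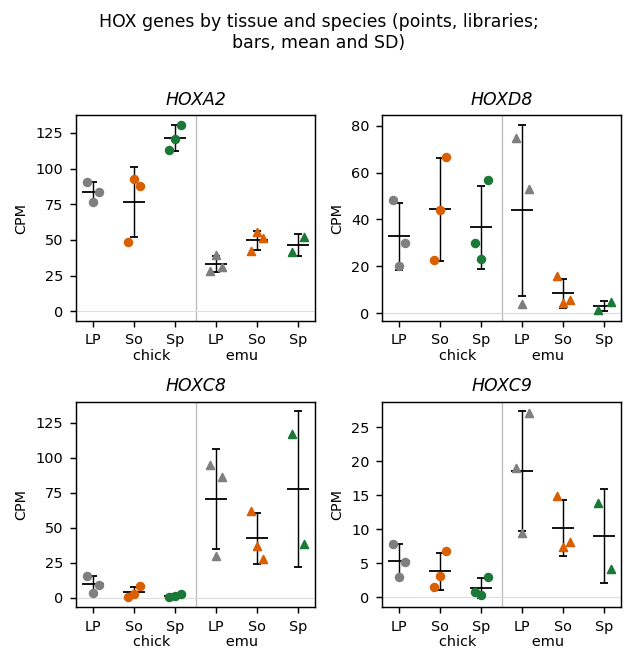
HOXA2, HOXD8, HOXC8 and HOXC9 in CPM (vertical axes, linear), in lateral plate (LP), somatopleure (So) and splanchnopleure (Sp) of the chick and the emu; points are libraries and bars are mean ± SD, which can reach below 0. The chick splanchnopleure is highest for HOXA2, and HOXC8, HOXC9 and HOXD8 spread widely within tissues, with emu lateral plate 23 at 3.69 CPM for HOXD8.

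The TALE genes include the PBX cofactors of HOX proteins and the TGIF repressors. PBX3 was at 31.3, 44.6 and 38.9 CPM in chick lateral plate 30, 31 and 32 and at 91.0, 75.3 and 50.8 in somatopleure 15, 60 and 63, without overlap. It rose by 0.92 (adjusted p = 0.0193), a call lost without lateral plate 30 (adjusted p = 0.0808) or 32 (0.0685) or somatopleure 60 (0.056). PBX4 was called in no comparison and ranged from 38.1 to 51.8 CPM in the chick and from 101 to 143 in the emu.

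TGIF1, a corepressor in TGF-beta signalling, was at 59.4 and 53.7 CPM in emu splanchnopleure 6 and the pool, against 99.7, 102 and 99.6 in lateral plate 1, 8 and 23, without overlap. It fell by 0.83 in emu splanchnopleure against lateral plate (adjusted p = 0.0106), lost without splanchnopleure 6 (adjusted p = 0.064) or the pool (0.0536). In chick splanchnopleure 50, 61 and 64 it was at 108, 119 and 137 CPM, below each lateral plate library, with a value of -0.31 (SE 0.22) and an adjusted p of 0.37.

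Among the CUT genes, chromatin-binding factors with CUT repeats, CUX1 was called in chick somatopleure against splanchnopleure. CUX1 rose by 0.67 (adjusted p = 0.0307), from 103, 117 and 135 CPM in splanchnopleure 50, 61 and 64 to 136, 210 and 219 in somatopleure 15, 60 and 63. That call was lost without somatopleure 60 (adjusted p = 0.0942) or 63 (0.0966) or splanchnopleure 50 (0.0835) or 61 (0.0577).

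Of the POU genes, POU3F1 and POU2F1 were called in the emu, and none in the chick tissue comparisons. POU3F1 had no count in either emu splanchnopleure library and was at 2.63, 2.57 and 2.09 CPM in lateral plate 1, 8 and 23, at least 6.27-fold higher than the floor of 3 counts per library. It was called as lower in emu splanchnopleure against lateral plate (adjusted p = 0.0235), lost without lateral plate 1 (adjusted p = 0.0647) or 8 (0.0565), splanchnopleure 6 (0.125) or the pool (0.0732). POU2F1, the widely expressed octamer factor OCT1, was at 36.5 and 40.8 CPM in the emu splanchnopleure pair, against 58.8, 55.5 and 61.8 in lateral plate 1, 8 and 23.

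POU2F1 fell by 0.60 in emu splanchnopleure against lateral plate (adjusted p = 0.0339), lost without any of lateral plate 1 (adjusted p = 0.0902), 8 (0.0679) or 23 (0.0875), splanchnopleure 6 (0.205) or the pool (0.0747). In the chick it ran only from 59.3 to 69.7 CPM over the 9 libraries. The species difference in splanchnopleure against lateral plate was 0.71 (SE 0.18, adjusted p = 0.0258), lost without chick lateral plate 31 (adjusted p = 0.0591) or 32 (0.0625) or splanchnopleure 50 (0.0506), or emu lateral plate 1 (0.0534) or 23 (0.0533) or splanchnopleure 6 (0.134).

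SIX4, a sine oculis factor, was called once, and SIX6 did not pass the filter. It was at 41.5 and 37.5 CPM in emu splanchnopleure 6 and the pool and at 60.2, 59.0 and 49.2 in somatopleure 5, 13 and 53, and rose by 0.51 (adjusted p = 0.0491) in somatopleure against splanchnopleure. That call was lost without lateral plate 1 (adjusted p = 0.0711), 8 (0.0844) or 23 (0.0748), somatopleure 5 (0.089) or 13 (0.112), splanchnopleure 6 (0.171) or the pool (0.173). The LIM genes were at low levels, with LHX2 at 0.828 to 4.74 CPM in the chick and LHX6 and LHX8 at or under 2.32 in the emu, and none was called in a tissue comparison.

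Several large fitted changes missed the threshold with all libraries in the fit. In chick somatopleure against lateral plate these were DLX3 (3.08, SE 0.95, adjusted p = 0.0669), EMX1 (2.14, SE 0.83, adjusted p = 0.141) and BARX2 (1.26, SE 0.49, adjusted p = 0.139), and in chick somatopleure against splanchnopleure IRX2 (2.54, SE 1.19, adjusted p = 0.166) and DLX6 (2.25, SE 0.96, adjusted p = 0.13). All of these genes were called in the same comparison without splanchnopleure 61, which, as said above, is not separate support. In somatopleure against lateral plate, which does not hold that library, DLX3, EMX1 and BARX2 were then at 3.09, 2.15 and 1.27. POU2AF1, the POU coactivator, was at -2.10 (SE 0.77, adjusted p = 0.0859) in chick splanchnopleure against lateral plate and at 1.67 (SE 0.78, adjusted p = 0.166) in chick somatopleure against splanchnopleure. In the emu BARX2 was at 2.95 (SE 1.27, adjusted p = 0.158) and LHX6, a LIM factor, at -1.85 (SE 0.59, adjusted p = 0.0716) in somatopleure against splanchnopleure, and LHX8 was at 1.31 (SE 1.0, adjusted p = 0.684) in somatopleure against lateral plate. Uncalled species differences of this size included POU3F1 at 6.86 (SE 2.12, adjusted p = 0.0606) and DLX6 at 5.22 (SE 2.81, adjusted p = 0.276) in splanchnopleure against lateral plate, fitted values that depend on the empty emu splanchnopleure libraries and are no bounds.

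The 25 genes that passed in neither species stayed at or under 2.71 CPM in each library. They are BARX1, DLX1, HMX2, HMX3, NKX1-1, NKX2-1, NKX2-2, NKX2-5, NKX6-3, the 5 posterior HOX genes, IRX4, LHX3, LHX4, LHX9, OTX2, PAX6, PAX9, POU1F1, POU4F2, POU4F3 and SIX6. IRX4 passed the filter when splanchnopleure 61 was left out. OTX2 and PAX6, factors of the forebrain and the eye, stayed at or under 0.773. HOXD12, LHX9 and SIX6 had no count in any library of either species. POU1F1, known from the pituitary, had 30 counts in the 2 emu splanchnopleure libraries and 3 in the 3 somatopleure libraries, a ratio of 14.8 (exact 95% interval 4.60 to 75.7, counting error only).

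Between the species, 35 of the genes were tested in both tables. In splanchnopleure against lateral plate 9 of these were called in the chick and 13 in the emu, and 6 of them in both, each time in the same direction. PITX3, TSHZ2, TSHZ3 and ZFHX4 were among those that rose, and GBX2 fell. These 6 are 66.7% of the chick calls and 46.2% of the emu calls, where the genes called in the same direction in both species made up 33.8% and 27.3% of the calls over all 9736 genes tested in both. In somatopleure against splanchnopleure 9 and 8 were called and 2 shared their direction, TSHZ1 and ZEB2, or 22.2% and 25% of the calls beside 26.1% and 37.5% over all genes. None was called in both species in somatopleure against lateral plate, where the emu had no call.

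**Figure D5:**
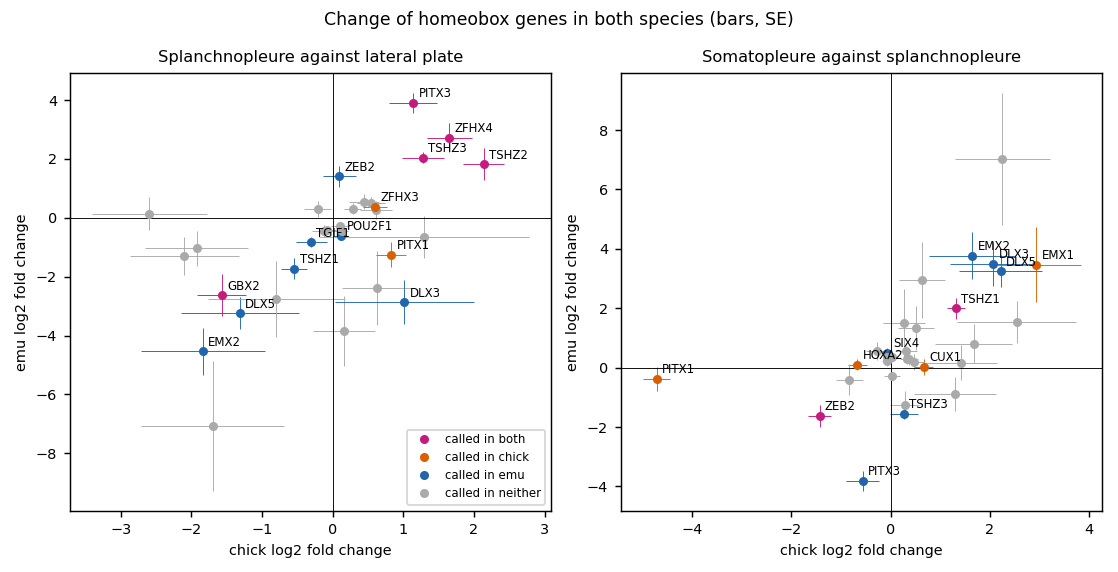
Log2 fold change in the chick (horizontal) and the emu (vertical) of homeobox genes tested in both species, for splanchnopleure against lateral plate and somatopleure against splanchnopleure; bars are SE and colours mark where a gene was called. PITX1 is at -4.71 in the chick and -0.37 in the emu in somatopleure against splanchnopleure, and PITX3 is high in the emu in splanchnopleure against lateral plate, at 3.91 against 1.14 in the chick.

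Homeobox genes outside the name rule were counted from a list of 65, of which 41 are in the tables and 26 were tested in the chick and 25 in the emu. In the chick 5 rose and 7 fell in somatopleure against lateral plate, 3 rose and 5 fell in splanchnopleure against lateral plate, and 5 rose and 6 fell in somatopleure against splanchnopleure. In the emu the same counts were 0 and 0, 2 and 3, and 3 and 4. Over all tested genes, in the same order, 9.8%, 16.9% and 19.1% were called in the chick and 0%, 20.6% and 13.4% in the emu. PRRX1, a limb mesenchyme factor, had a fitted log2 fold change of 3.39 in chick and 2.39 in emu somatopleure against splanchnopleure. ISL1, a LIM factor of heart and hindlimb progenitors, had the largest fitted species difference of that list there, at -6.66. The emu splanchnopleure libraries spread widely in PRRX1, as given above. Of the 6 listed somatopleure markers, PRRX1 among them, 6 were called as higher in that comparison in the chick and 1 in the emu.

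Genes known to act upstream of HOX genes or beside them (retinoid enzymes and receptors, CDX factors, Polycomb members and cofactors) were counted from a list of 30, of which 20 are in the tables. Of these, 20 were tested in the chick and 19 in the emu. In the chick 2 rose and 2 fell in somatopleure against lateral plate, 3 rose and 3 fell in splanchnopleure against lateral plate, and 3 rose and 2 fell in somatopleure against splanchnopleure. In the emu the counts were 0 and 0, 2 and 3, and 3 and 1. The shares of all tested genes called were again 9.8%, 16.9% and 19.1% in the chick and 0%, 20.6% and 13.4% in the emu. CYP26B1, which degrades retinoic acid, was called in both species in both comparisons with the splanchnopleure, with a rise against lateral plate of 2.73 in the chick and 2.13 in the emu. CDX2, which activates trunk HOX genes, fell by 2.81 in chick somatopleure and by 1.97 in chick splanchnopleure against lateral plate. CDX2 is also a listed posterior growth zone marker. Of the 7 tested markers of that list, 4 were called as lower and 1 as higher in chick somatopleure. In chick splanchnopleure 6 were called as lower and 1 as higher. The part of posterior growth zone cells in the CDX2 values was not tested.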

How the data were processed

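RNA of forelimb-level chick and emu tissue was isolated with a PicoPure kit and made into libraries with Kapa reagents, per the labels' protocols. The deposited values are whole read counts per gene symbol, not normalized by the authors. Per the submitters' processing notes, the tools were STAR, featureCounts and DESeq and the build was galGal4, without versions. The genome used for the emu reads, and whether counting used strand, are not given in the sources used here. Counts of overlapping, antisense or near-identical genes are therefore uncertain.

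Each species' table was fitted whole, over its 3 tissues, by edgeR 4.0.16 (R 4.3.3) with TMM scaling and a two-sided quasi-likelihood F test. The filter was filterByExpr (minimum count 10, minimum total 15), and Benjamini-Hochberg adjustment ran over 10071 chick and 10640 emu genes. Species differences were tested as interactions in 1 fit of both tables joined by symbol. Levels were tested neither between species, where gene length and annotation enter, nor between genes. CPM are counts relative to TMM-scaled library size. The SE is the size of the log2 fold change divided by the square root of F. A tissue with no count was set to a floor of 3 counts per library, and ratios against 1 to 3 counts have exact 95% Clopper-Pearson intervals. Both cover counting error only. The biological coefficient of variation was 0.168 in the chick and 0.221 in the emu, and replicates differed by more than sampling noise (chi-square per degree of freedom at least 3.95).

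The members and gene lists were chosen with earlier results of these data known. Genes are named by a rule: members called (at most 25 per comparison), members with no count in a tissue but at least 10 in each library of another, members called in a species difference, the 5 largest changes not called, and every HOX gene. Some members are counted but not reported by name here. Others, such as POU1F1, PBX4 and genes of the other lists, were chosen after their values were seen. Alternatives were RLE scaling, DESeq2 1.42.0, no filter, leaving out each library, leaving out both emu libraries of deviating stage label and, added after seeing the data, a species fit on the 9736 genes tested in both tables. Names were matched to the RefSeq gene table of GRCg7b for 66 of the 68 genes (not POU2F3 and SIX4), which served only for names and neighbours. The HH18 tables were not used, and none of the 23 HH18 libraries is analysed here. The fits were tested on simulated data.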

Additional observations from a re-analysis of the deposited data

Results flagged for a closer look

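The change of 4 homeobox genes differed between the species by a test of the difference itself (edgeR interaction, chick minus emu, log2, adjusted p under 0.05). PITX1 was flagged 3 times: at -4.29 in somatopleure against splanchnopleure, at -2.23 in somatopleure against lateral plate and at 2.06 in splanchnopleure against lateral plate. PITX3 was flagged at -2.78 in splanchnopleure against lateral plate and at 3.30 in somatopleure against splanchnopleure. TSHZ3 was flagged at 1.87 in somatopleure against splanchnopleure, and POU2F1 at 0.71 in splanchnopleure against lateral plate. The 3 comparisons share tissues, so the values of a gene are not independent of each other. No tissue has 4 or more libraries, so no library was tested as standing apart within its group.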

How the results depend on the processing

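Counts of homeobox genes called stayed within 1.5 times of those reported under RLE scaling, without the filter on low counts and, for species differences, with the fit on genes tested in both tables. DESeq2 called 2 in emu somatopleure against lateral plate (1.32% of all genes), 16 in emu somatopleure against splanchnopleure (18.6%) and 8 in the species difference of splanchnopleure against lateral plate (12.1%). Without both emu libraries of deviating stage label (lateral plate 1 and somatopleure 13), the emu counts were 5 in splanchnopleure against lateral plate (6.2% of all genes) and 4 in somatopleure against splanchnopleure (4.29%), and the species difference of somatopleure against lateral plate had 0 (0.871%), with 0 called by edgeR in the emu comparison itself. With 1 library left out, the chick counts ran from 5 to 15 in somatopleure against lateral plate, 3 to 12 in splanchnopleure against lateral plate and 6 to 15 in somatopleure against splanchnopleure. The shares of all genes called ran from 5.68% to 10.4%, 8.02% to 22% and 11.8% to 21.3%. In the same order, and with the emu splanchnopleure pair kept, the emu counts ran from 0 to 0, 8 to 18 and 8 to 13. All genes ran from 0% to 0.00943%, 8.79% to 23.7% and 6.92% to 14.9%. Likewise the species differences ran from 0 to 2, 2 to 4 and 3 to 5, beside 0.995% to 3.18%, 4.27% to 9.51% and 3.03% to 6.86%. Leaving out emu splanchnopleure 6 lowered the emu counts with that tissue further. Direction turned for uncalled values only. Without both emu libraries of deviating stage label, HOXC9 moved to -0.22 in emu somatopleure against splanchnopleure. With 1 library left out, values in chick somatopleure against lateral plate ran from -0.29 to 0.11 for HOXA2. HOXD8 ran from -0.32 to 0.57 in chick splanchnopleure against lateral plate and from -0.15 to 0.75 in chick somatopleure against splanchnopleure. In the emu HOXC8 ran from -0.88 to 0.74 in splanchnopleure against lateral plate, and in somatopleure against splanchnopleure HOXA2 ran from -0.052 to 0.27, HOXC9 from -0.45 to 1.30 and HOXC8 from -1.47 to 0.14. The species difference in somatopleure against lateral plate ran from -0.34 to 0.82 for HOXC9 and from -1.68 to 0.12 for HOXC8. In splanchnopleure against lateral plate it ran from -0.12 to 0.19 for HOXA2 and from -2.29 to 0.23 for HOXC9, and in somatopleure against splanchnopleure from -5.23 to 0.071 for DLX6. The cause of these moves was not tested. No paired analysis was possible because the early tissues share fewer than 2 library numbers. Whether depth or lack of expression set the low counts of the 25 genes that passed the filter in neither species was not tested.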
